A study of Arabidopsis thaliana with 12 samples.

Results

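The regions described are the H3K27me3 peaks of Arabidopsis thaliana pericentromeres, taken as the peaks whose midpoint lay between 11.5 and 17.7 Mb on chromosome 1, 1.1 and 7.2 Mb on chromosome 2, 10.3 and 17.3 Mb on chromosome 3, 1.5 and 6.3 Mb on chromosome 4, or 9.0 and 16.0 Mb on chromosome 5 of the TAIR10 genome. These windows held 5957 of the 36598 peaks in the 4 H3K27me3 lists. The peaks were picked by position alone, though the windows were set with earlier results of these data known. Together the windows span 31.1 Mb, which is 26.1% of the nuclear genome, and the remaining 88.0 Mb are called the arms here.

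The samples were seedlings 14 days old of the Col-0 accession, grown at 22 °C under 16 h of light and 8 h of darkness. Chromatin immunoprecipitation followed by sequencing (ChIP-seq) with an antibody to trimethylated lysine 27 of histone H3 was done on wild type and on val1val2, a double mutant in the related genes VAL1 and VAL2, with 2 replicates of each genotype and 1 input of each. VAL1-GFP in a val1 background (2 lists) and VAL2-GFP in a val2 background (1 list used) gave the positions of the tagged proteins. The second VAL2-GFP list was not analysed here, and no promoter is named for either transgene in the labels. Whether the replicates were grown as separate plants is not stated in the labels, and their spread may be technical. Peak lists carry no measure of VAL1 or VAL2 product, so the mutant genotype was not checked from the data. Read depth per sample is unknown.

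H3K27me3 is the mark that Polycomb repressive complex 2 (PRC2) lays on genes kept silent in a given tissue. VAL1 and VAL2 are B3-domain repressors that recognise the RY motif and are known as recruiters of PRC2. Pericentromeres flank the centromeres, hold most of the transposons of the genome, and are packed as heterochromatin marked by DNA methylation and by methylation of lysine 9 of histone H3. In Arabidopsis H3K27me3 is known mainly from genes in euchromatin.

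The sequence content of the windows differed from that of the arms. The windows held 3383 of 27444 protein-coding genes, which is 109 per Mb against 273 per Mb on the arms. They held 3777 of 4843 annotated pseudogenes, 121 per Mb against 12.1 per Mb, and 3574 of these carried no description, so the annotation does not tell which of them are transposons. Genes described as transposons numbered 63 of 135. Soft-masked (repeat or low-complexity) bases made up 29.2% of the windows and 19.4% of the arms, and 76.2% of the 31-base words of the windows occurred once in the genome, against 96.3% on the arms. G+C content was 36.0% in both.

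Stretches of 5 pericentromeric regions are given as examples. These were picked by hand after their values were seen and do not represent the peaks as a whole. They are the wild-type domain of highest fold enrichment, shared with val1val2, a pair of wild-type regions with no peak in val1val2, and a pair of val1val2 regions with no peak in wild type, read from the plus strand of TAIR10.1, written 5′ to 3′. Capitals mark the RY core TGCATG, which reads CATGCA from the other strand, the telobox AAACCCTA, which reads TAGGGTTT, and the GA repeat GAGAGA, which reads TCTCTC. Each was sought on both strands in sequence from RefSeq.
AT1G32049 (chr1:11527869-11528068, pseudogene, shared): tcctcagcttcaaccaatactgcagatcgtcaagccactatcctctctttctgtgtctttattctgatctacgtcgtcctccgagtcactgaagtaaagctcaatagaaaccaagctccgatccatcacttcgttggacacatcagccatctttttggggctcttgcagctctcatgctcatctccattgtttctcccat
AtLEA4-1 (chr1:11775186-11775215, 3′ UTR, wild type): tattttggttattcCATGCActatcttgta
Intergenic region (chr4:2320361-2320560, wild type): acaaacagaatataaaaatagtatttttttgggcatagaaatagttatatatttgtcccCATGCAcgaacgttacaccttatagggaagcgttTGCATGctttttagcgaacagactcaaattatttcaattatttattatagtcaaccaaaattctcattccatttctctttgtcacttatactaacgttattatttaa
AT3G45030 (chr3:16471742-16471941, mostly intron, val1val2): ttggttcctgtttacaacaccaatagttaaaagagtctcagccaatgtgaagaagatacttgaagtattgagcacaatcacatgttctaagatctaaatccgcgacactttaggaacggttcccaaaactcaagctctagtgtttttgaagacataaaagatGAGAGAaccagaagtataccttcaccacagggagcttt
SADHU1-1 (chr2:4007045-4007164, next to the retroelement, val1val2): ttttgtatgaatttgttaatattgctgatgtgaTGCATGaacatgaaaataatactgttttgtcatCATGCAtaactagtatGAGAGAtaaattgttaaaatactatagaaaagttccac
In AtLEA4-1, a late embryogenesis abundant gene, the highest point of the VAL1-GFP peak lay at position 11775200 in both lists, within the RY core at 11775200 to 11775205 on the minus strand. The intergenic region on chromosome 4 held 7 RY cores within 2617 bp, and its nearest VAL1 summits lay at 2320451 and 2320470, beside the core at 2320454 to 2320459. At SADHU1-1, a non-coding retroelement on the minus strand whose annotated start is 4007044, both VAL1 lists had a summit at 4007064. The VAL2 summit, at 4007082, fell within the RY core at 4007078 to 4007083, and another core lay at 4007111 to 4007116. The stretches of AT1G32049 and AT3G45030 were taken at the centre of the domain and the other 3 at VAL1 summits, so the presence of an RY core cannot be compared between them. The AT1G32049 domain held summits of both VAL1 lists and of VAL2, and the AT3G45030 domain summits of both VAL1 lists. All 5 domains thus held summits of both VAL1 lists. Such summits fell within 20.3% of all shared wild-type pericentromeric domains, 40.0% of those absent from val1val2 and 7.76% of those absent from wild type.

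Pericentromeric cover by H3K27me3 was lower than on the arms in every library and was higher in val1val2 than in wild type. Peaks covered 8.27% and 8.52% of the windows in the 2 wild-type libraries and 11.5% and 11.6% in the 2 val1val2 libraries. On the arms they covered 16.9% and 17.2% in wild type compared with 17.7% and 17.8% in val1val2. The genotypes did not overlap in either part. Cover was thus 1.37 times as large in val1val2 in the windows (8.39 ± 0.173% against 11.5 ± 0.0470%, SD, n = 2) and 1.04 times as large on the arms (17.0 ± 0.198% against 17.8 ± 0.0571%, SD, n = 2). The log2 ratio of pericentromeric to arm cover was −2.53 and −2.51 in wild type and −2.13 in both val1val2 libraries, a difference of 0.40. An exact two-sided permutation test over the libraries gave p = 0.333, the smallest that 2 libraries against 2 allow. Across libraries, the mean difference of windows from arms was −7.45 percentage points, with p = 0.125 in an exact paired sign-flip permutation test (two-sided), the smallest that 4 libraries allow.

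The windows held 1217 and 1200 peaks in wild type compared with 1752 and 1788 in val1val2, which is 14.6% and 14.4% of all peaks in wild type compared with 17.7% and 17.8% in val1val2. The arms held 7107 and 7125 peaks in wild type compared with 8173 and 8236 in val1val2. Pericentromeric peaks were therefore 1.46 times and arm peaks 1.15 times as many in the mutant.

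**Figure D1:**
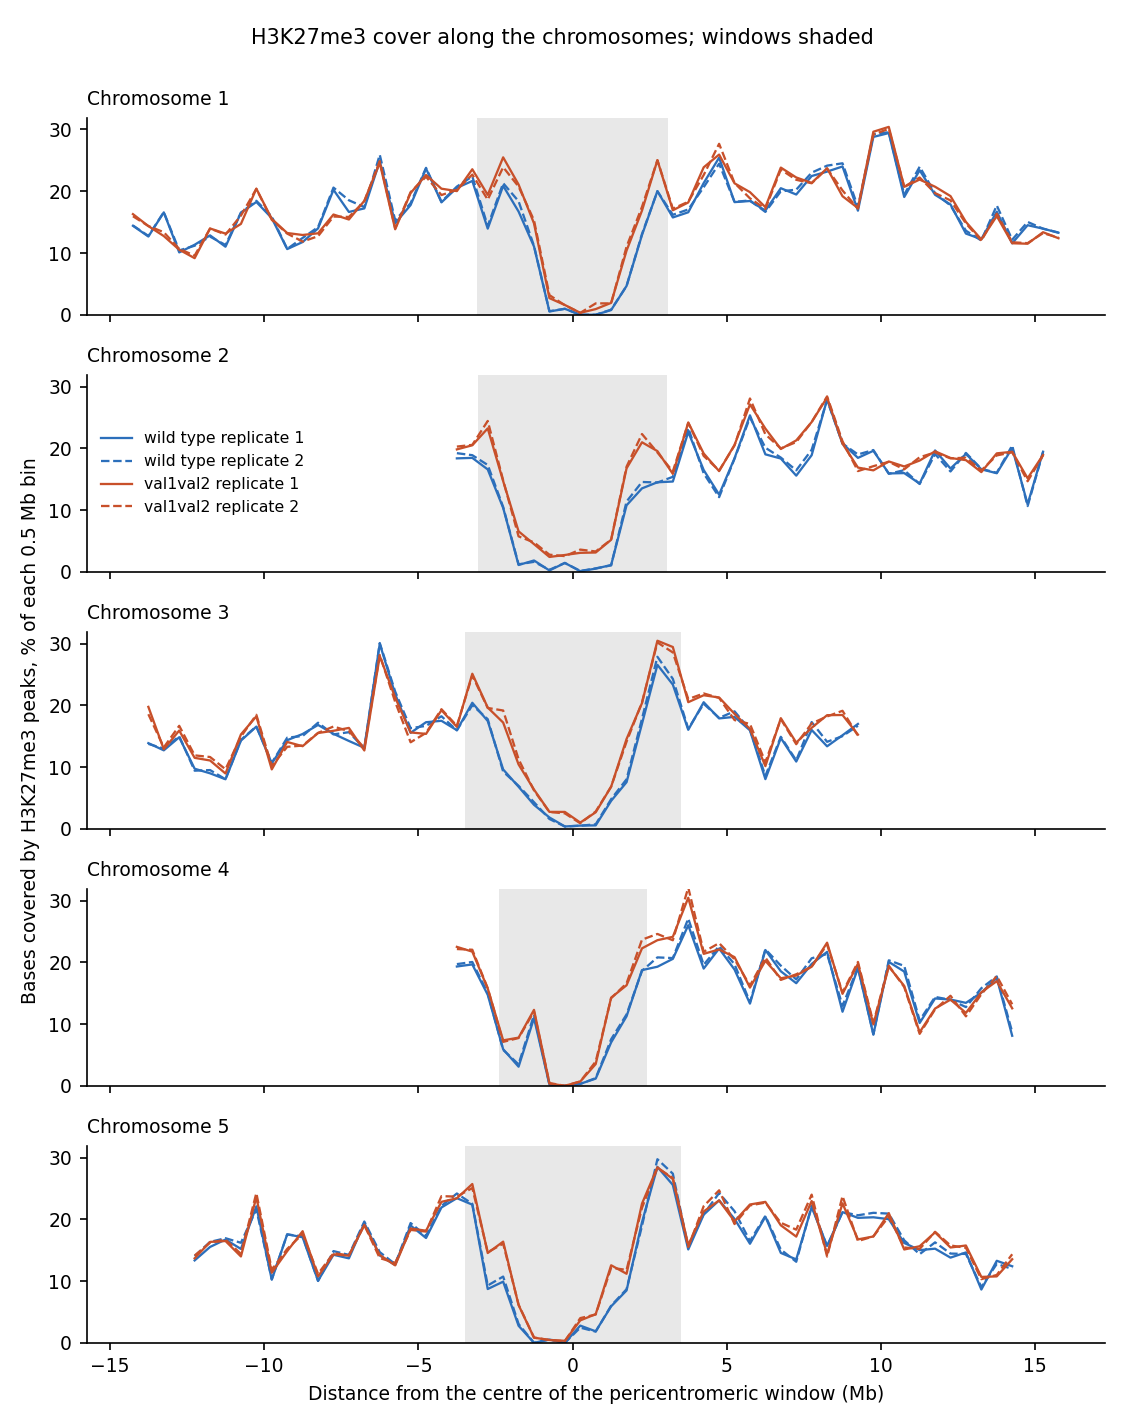
Share of each 0.5 Mb bin covered by H3K27me3 peaks (percent, y axis) against distance from the centre of the pericentromeric window (Mb, x axis) for the 5 chromosomes, with 1 line per library and the windows shaded. Cover is lowest near the centre of each window, and inside the windows the val1val2 lines run above the wild-type lines over most bins.

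Each of the 5 chromosomes showed the same order. The ratio of val1val2 to wild-type cover in the windows was 1.33 on chromosome 1, 1.67 on chromosome 2, 1.33 on chromosome 3, 1.47 on chromosome 4 and 1.25 on chromosome 5. On the arms of the same chromosomes it was 1.01, 1.09, 1.07, 1.05 and 1.03. Chromosome 2, with the highest ratio, had 188 and 187 pericentromeric peaks in wild type compared with 316 and 330 in val1val2. Chromosome 5, with the lowest, had 319 and 324 in wild type compared with 407 and 424 in val1val2.

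**Figure D2:**
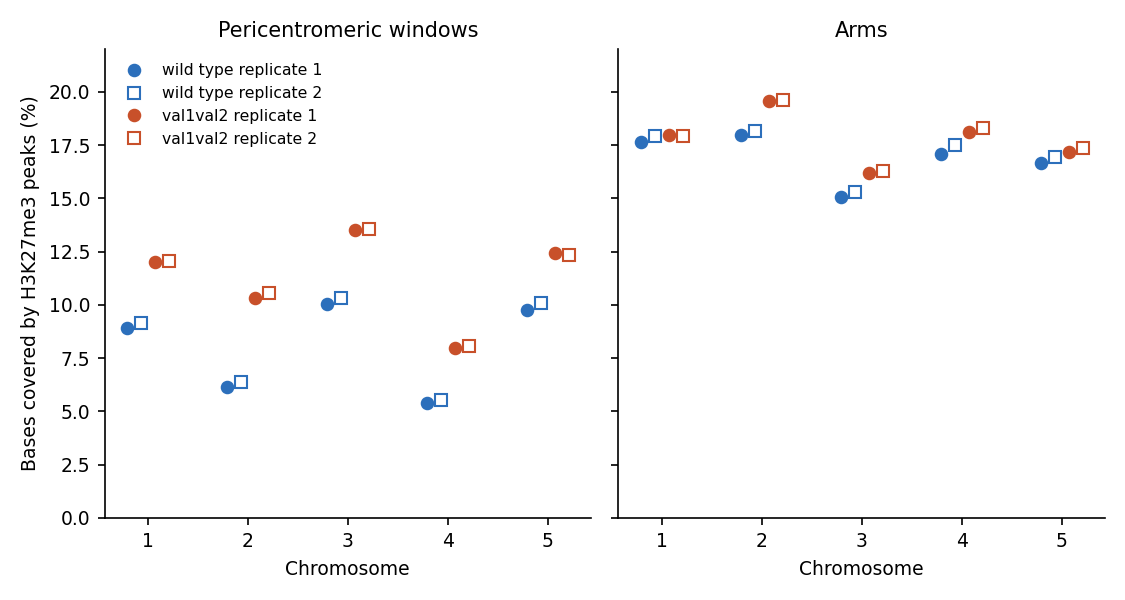
Bases covered by H3K27me3 peaks (percent, y axis) by chromosome (x axis), in the windows (left) and on the arms (right), 1 point per library. In the windows both val1val2 points lie above both wild-type points on each chromosome, with 10.3% and 10.6% against 6.15% and 6.36% on chromosome 2 being the widest relative gap.

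Within the windows, cover rose and its ratio between genotypes fell with distance from the centre. In the inner 1 Mb on each side of the window centre, peaks covered 0.695% and 0.688% in wild type compared with 1.98% and 2.12% in val1val2, a ratio of 2.96. From 1 to 2 Mb the ratio was 1.63, from 2 to 3 Mb 1.27, and beyond 3 Mb 1.13, where wild-type cover had risen to 22.3% and 22.9%. The outermost class holds mostly sequence of chromosomes 3 and 5, whose windows span 7.0 Mb each. It holds little of chromosomes 1 and 2 (6.2 and 6.1 Mb) and none of chromosome 4, so its ratio rests on a different mix of chromosomes. Wild-type cover in the outermost class was above that of the arms, and it was below it in each class nearer the centre. At the limits themselves, the 0.5 Mb just inside had 18.0% and 18.4% cover in wild type compared with 21.9% and 21.8% in val1val2, and the 0.5 Mb just outside had 17.7% and 18.2% in wild type compared with 19.5% and 19.7% in val1val2.

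**Figure D3:**
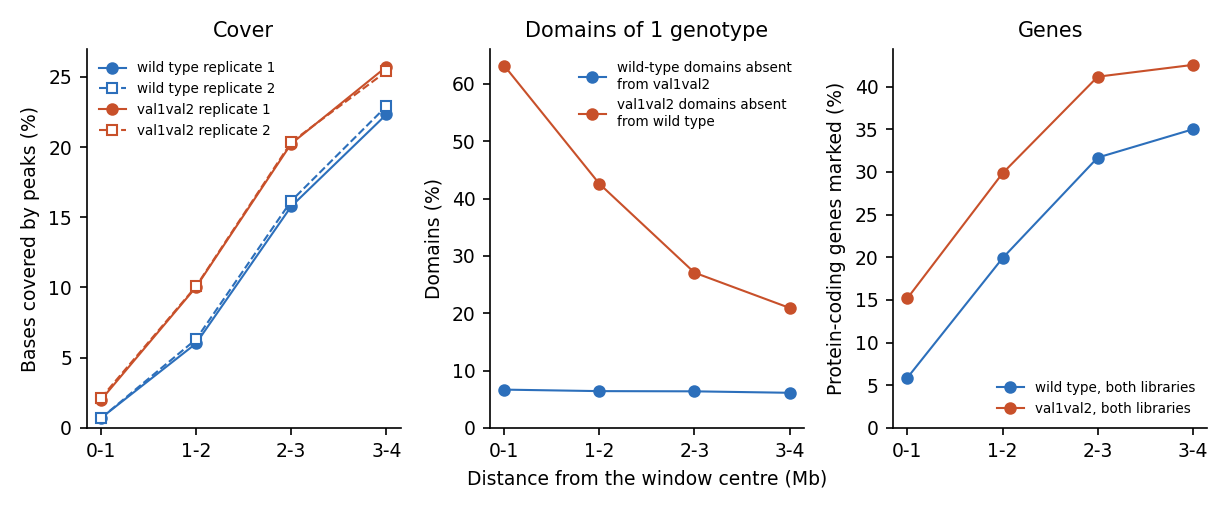
Cover per library (left), domains present in 1 genotype only (middle, percent of the domains of that genotype) and protein-coding genes marked in both libraries of a genotype (right), against distance from the window centre in Mb. Wild-type domains with no val1val2 peak stay between 6.11% and 6.67% of domains, while val1val2 domains with no wild-type peak go from 63.2% in the inner 1 Mb to 20.9% beyond 3 Mb. In the inner 1 Mb these shares rest on 3 of 45 and 79 of 125 domains.

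Pericentromeric peaks had higher median lengths than arm peaks and, in wild type, lower pileups. Median length in the windows was 1859 and 1932.5 bp in wild type and 1758 and 1741 bp in val1val2, against 1775, 1798, 1583 and 1559 bp on the arms of the same libraries. The mean difference was 144 bp (p = 0.125, exact paired sign-flip permutation test, two-sided, the smallest possible), and it was 9.63 bp (p = 0.875, exact) when the windows were shrunk by 1 Mb at each end. Lengths in the windows ran from 200 to 9750 bp.

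Median pileup, the authors' read coverage of a peak, taken here as a value over the whole peak since these lists give no summits, was 60.4 and 65.8 in the windows and 75.7 and 82.0 on the arms in wild type. In val1val2 it was 66.1 and 67.3 in the windows and 66.1 and 68.6 on the arms. Window peaks thus lay at 0.798 and 0.802 times the arm pileup in wild type and at 1.00 and 0.981 times in val1val2. The mean log2 ratio was −0.17 (p = 0.125 by the same exact test). Median fold enrichment over the local background, also the authors' value, was 1.81 and 1.82 in the windows in wild type compared with 1.82 and 1.80 in val1val2. On the arms it was 1.93, 1.92, 1.88 and 1.88. The mean difference was −0.09 (p = 0.125 by the same exact test), and it turned to 0.0046 (p = 0.75, exact) when the windows were shrunk by 1 Mb at each end.

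To follow the same places through all libraries, domains were defined as stretches of 200 bp or more under peaks of both replicates. Wild type had 1183 pericentromeric domains and val1val2 1717. Among the wild-type domains with a matched peak in all 4 libraries, 1094 lay in the windows and 5980 on the arms. At the pericentromeric ones, median pileup was 64.5 and 70.8 in wild type compared with 91.3 and 94.7 in val1val2, whereas on the arms it was 85.2 and 92.6 in wild type compared with 83.1 and 86.3 in val1val2. The pericentromeric pileup was thus below that of the arms in wild type and above it in the mutant.

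The implied local background, pileup divided by fold enrichment, moved with it. Its median at these pericentromeric domains was 29.5 and 32.9 in wild type compared with 42.9 and 44.1 in val1val2, against 35.7, 38.9, 34.3 and 35.9 on the arms. Relative to the arms this is 0.826 and 0.847 in wild type compared with 1.25 and 1.23 in val1val2. Fold enrichment moved less. Its median was 1.86 and 1.84 in wild type compared with 1.94 and 1.94 in val1val2 in the windows, and 2.00, 1.99, 2.01 and 2.01 on the arms. Domain by domain, the median log2 change from wild type to val1val2 was 0.34 for pileup, 0.23 for background and 0.02 for fold enrichment in the windows, and −0.09, 0.03 and 0.01 on the arms. Each genotype had a single input, and the labels do not name the control used for each list. The part of the higher background in the larger number of val1val2 peaks was not tested. Among peaks with a fold enrichment of at least 2, a limit chosen after seeing the data, the ratio of covers was 1.41 in the windows and 1.01 on the arms.

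**Figure D4:**
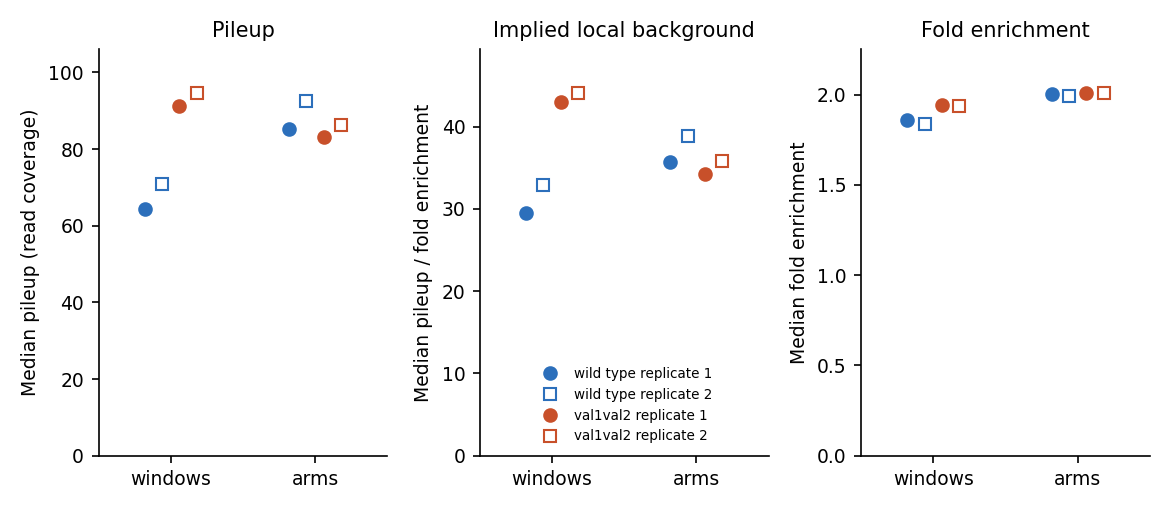
Median pileup (left), implied local background (middle) and fold enrichment (right) at wild-type domains with a peak in all 4 libraries, in the windows (1094) and on the arms (5980), 1 point per library. In the windows the val1val2 points lie above the wild-type points in all panels, by more for pileup (91.3 and 94.7 against 64.5 and 70.8) than for fold enrichment (1.94 and 1.94 against 1.86 and 1.84).

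Wild-type domains were lost from the windows less often than from the arms, and a larger share of val1val2 domains was new there. Of the 1183 wild-type pericentromeric domains, 75 (6.34%, exact 95% interval 5.02% to 7.88%) had no overlapping peak in either val1val2 library, against 833 of 6972 on the arms (11.9%, 11.2% to 12.7%) and 11.1% of all wild-type domains. Of the 1717 val1val2 pericentromeric domains, 567 (33.0%, 30.8% to 35.3%) had no overlapping peak in either wild-type library, against 1669 of 7946 on the arms (21.0%, 20.1% to 21.9%) and 23.1% of all val1val2 domains. The intervals cover counting error only, and neighbouring domains are not replicates, so no test was made. By length of sequence, new domains were not more frequent in the windows, with 567 in 31.1 Mb against 1669 in the 88.0 Mb of the arms. The 1150 shared val1val2 domains of the windows were sparser than the 6277 of the arms. The loss shares depended on peak strength: among peaks with −log10 q of at least 10, 25.3% of wild-type domains in the windows and 26.6% on the arms had no val1val2 peak, while the shares of val1val2 domains without a wild-type peak were 44.3% and 25.5%. Where a domain matched 1 domain of the other genotype and no other, the 942 pericentromeric pairs had a median length of 1918.5 bp in wild type and 2154.5 bp in val1val2, and 59.2% were longer in the mutant, against 48.9% of 5154 pairs on the arms.

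The pericentromeric domains present only in val1val2 were short and weak compared with the shared ones. Their median length was 864 bp, their median pileup 42.7 and their median fold enrichment 1.69, against 2109 bp, 90.4 and 1.92 for the 1150 val1val2 domains shared with wild type. The median distance of the new domains to the nearest wild-type peak was 6601 bp. Their median implied background was 21.4, against 42.9 for the shared ones and 21.3 for new domains on the arms. The 75 lost domains were of like size, with a median length of 746 bp, a pileup of 46.8 and a fold enrichment of 1.67. Their median implied background in wild type was 20.6, and that of lost domains on the arms was also 20.6. Whether these values are the lowest background that a list can give was not tested, so their likeness between windows and arms was not read as a result. New domains lay on mostly unique sequence: on average 93.8% of their 31-base words were unique to the genome, and 3.17% of the domains had fewer unique than repeated words, against 0.696% of the shared ones. Masked bases made up on average 17.7% of a new domain and 18.6% of a shared val1val2 domain. Both means lay below the 29.2% of all bases of the windows.

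The strongest new domain, a region at chr3:16471271-16472411 covering AT3G45030, which encodes a protein of the ribosomal S10p/S20e family, had fold enrichments of 4.57 and 3.83 in val1val2 and no peak in wild type. The next lay over 11% of PHOT1, a blue-light receptor gene, at 3.43 and 3.80, and over AT5G34930, an arogenate dehydrogenase gene, at 3.43 and 3.74. AT2G11910, an uncharacterised gene on chromosome 2, reached 3.47 and 3.63, and AT3G43630, a gene of the vacuolar iron transporter family, reached 3.60 and 3.46. None of these domains had a wild-type peak. The longest new domain covered 5523 bp at chr2:5535594-5541116, over AT2G13350 and most of AGT, a photorespiratory aminotransferase gene, with fold enrichments of 1.81 and 1.82. The strongest lost domain, at chr1:17464524-17465415, lay at one end of SEC3A, which encodes a subunit of the exocyst complex, with fold enrichments of 4.86 and 5.56 in wild type.

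VAL1-GFP and VAL2-GFP summits were most frequent on lost domains and least frequent on new ones. A VAL1 summit of each list fell within 225 of 1108 shared wild-type pericentromeric domains (20.3%, exact 95% interval 18.0% to 22.8%), 30 of the 75 lost domains (40.0%, 28.9% to 52.0%) and 44 of the 567 new ones (7.76%, 5.69% to 10.3%). The same shares on the arms were 34.2%, 39.1% and 10.96%. VAL2 summits of the single list fell within 17.5%, 29.3% and 7.41% of these pericentromeric classes, and 31.9%, 37.0% and 17.4% on the arms. Shared pericentromeric domains thus held summits less often than shared arm domains, at median lengths of 1874 and 1851 bp. Lost domains had median lengths of 746 and 755 bp and VAL1 shares of 40.0% and 39.1%. These differences were not tested.

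The RY core occurred in the central 200 bp of 11.3% of the shared wild-type pericentromeric domains (125 of 1108), 24.0% of the lost ones (18 of 75; exact 95% interval 14.9% to 35.3%) and 34 of the 567 new ones (4.19% to 8.28%). Of all 200-base tiles of the windows, 8.11% held it, and on the arms 8.03%. On the arms the shares of domains were 10.5%, 16.4% and 3.18%. GAGAGA was found in 18.6% of the shared, 9.33% of the lost (7 of 75; exact 95% interval 3.84% to 18.3%) and 22.6% of the new pericentromeric domains, against 14.4% of tiles. On the arms it was found in 17.6%, 16.4% and 24.0%, against 18.1% of tiles. The telobox, bound by factors that also recruit PRC2, was found in 3.97%, 1.33% (1 domain) and 5.47%, against 3.20% of tiles. Its shares on the arms were 3.81%, 2.16% and 2.70%, against 2.41% of tiles. These shares describe letters in a window and not binding.

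Gene content set pericentromeric peaks apart from arm peaks, and the sequence under them differed too. Protein-coding genes made up 21.8% of the bases of the windows and 65.5% of those of the arms. Pseudogenes or described transposons made up 27.7% and 2.27%. A peak was counted at 1 bp of overlap, so shares of peaks and shares of bases are not on the same scale. Of the peaks in the windows, 70.5% and 71.4% overlapped a protein-coding gene in wild type compared with 65.7% and 65.1% in val1val2, against 81.1%, 81.2%, 83.9% and 84.8% on the arms. Peaks over a pseudogene or described transposon made up 14.0% and 14.3% of the window peaks in wild type compared with 17.0% and 17.3% in val1val2, against 4.70%, 4.70%, 4.72% and 4.70% on the arms. The mean differences between windows and arms were −14.6 and 10.9 percentage points, each with p = 0.125 in the exact paired sign-flip permutation test (two-sided), the smallest possible.

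Although the windows had little cover, their protein-coding genes were marked in shares close to those of the arms in wild type and above them in val1val2. Peaks over 20% or more of its length made a gene count as marked. In wild type 26.6% and 27.2% of the 3383 protein-coding genes in the windows were marked, against 26.2% and 26.4% of the 24061 on the arms. In val1val2 the shares were 36.1% and 36.4% in the windows and 30.5% and 30.99% on the arms. Of 873 pericentromeric genes marked in both wild-type libraries, 36 were marked in neither val1val2 library (4.12%; 520 on the arms, 8.46%; 7.92% of all marked genes). Of 2437 unmarked in both wild-type libraries, 315 were marked in both val1val2 libraries (12.9%; 1448 on the arms, 8.25%; 8.82% of all unmarked genes). Both counts depended on peak strength: with a fold enrichment of at least 2, 78 genes were lost and 212 gained, and with −log10 q of at least 10, 68 were lost and 168 gained. In the inner 1 Mb, 5.88% of 408 genes were marked in wild type and 15.2% in val1val2, and beyond 3 Mb 35.0% and 42.5% of 543.

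Pseudogenes were the class with the widest gap between windows and arms. In the windows 4.08% and 4.05% of 3777 pseudogenes were marked in wild type compared with 6.94% and 6.99% in val1val2. On the arms, 27.9%, 28.1%, 32.9% and 32.7% of 1066 were marked. In the windows 6 of 146 marked pseudogenes were lost (4.11%, against 8.42% on the arms and 6.96% of all). Of 3616 unmarked ones, 104 were gained (2.88%, against 8.75% on the arms and 3.89% of all). Of the pericentromeric pseudogenes without a description, 3.36% and 3.39% were marked in wild type compared with 5.96% and 5.99% in val1val2. Of these, 4 of 114 were lost (3.51%, against 7.91% on the arms and 6.19% of all). Gains were 87 of 3447 (2.52%, against 7.54% on the arms and 3.24% of all). Among the 63 genes described as transposons, 6.35% and 4.76% were marked in wild type and 14.3% in each val1val2 library. Of the 3 marked in both wild-type libraries, 0 were lost (0% of all those marked in the genome). Of 59 unmarked ones, 5 were gained (8.47%, against 12.7% on the arms and 10.5% of all). Non-coding RNA genes went from 19.1% and 19.0% to 26.9% and 28.6% in the windows, and from 19.1% and 19.0% to 20.7% and 21.2% on the arms. Of those in the windows, 24 of 172 were lost (14.0%, against 16.3% on the arms and 15.9% of all). Gains were 97 of 779 (12.5%, against 5.83% on the arms and 6.98% of all).

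**Figure D5:**
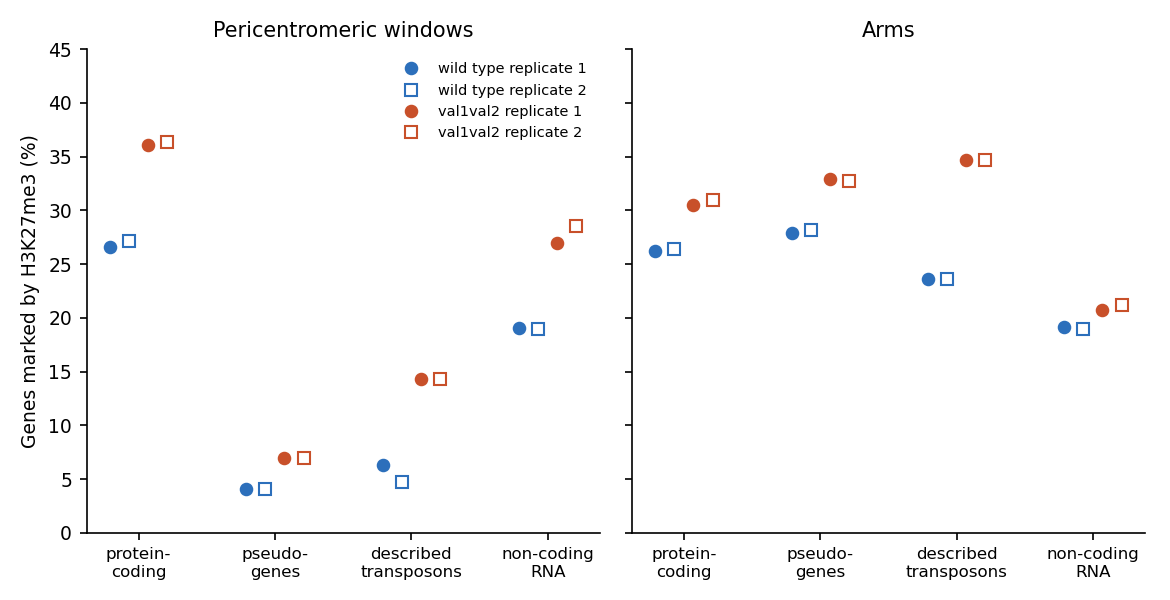
Share of genes marked by H3K27me3 (percent, y axis) by annotated class (x axis), in the windows (left) and on the arms (right), 1 point per library. Protein-coding genes sit at 26.6% and 27.2% in wild-type windows and 26.2% and 26.4% on wild-type arms, whereas pseudogenes sit at 4.08% and 4.05% in the windows and 27.9% and 28.1% on the arms.

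Among the protein-coding genes marked in all 4 libraries, AGP10, an arabinogalactan protein of the cell surface, was fully covered in wild type with fold enrichments of 5.98 and 6.31, and in val1val2 its cover was 74.9% and 74.1% and its fold enrichment 3.79 and 3.94. SDR4, a short-chain dehydrogenase gene, went from 5.40 and 4.88 to 3.44 and 3.56 with a cover of 77.1% to 87.5%. For both genes the 2 genotypes did not overlap. DAU2, a target of the male germline factor DUO1, had 4.35 and 4.45 in wild type compared with 3.79 and 3.82 in val1val2. MYB74, an R2R3 transcription factor gene, had 3.69 and 3.77 in wild type compared with 3.61 and 3.45 in val1val2, and RPL12-B, a ribosomal protein gene, had 3.58, 3.61, 3.54 and 3.58, close together in the 4 libraries. CBP60G, a calmodulin-binding activator of immune genes, had 3.67 and 3.39 against 2.65 and 3.07, while its cover was 63.7% and 52.2% in wild type compared with 82.3% and 86.1% in val1val2. DES-1-LIKE, NAC015, CYP81D11 and TRX5 completed the 10, with fold enrichments from 2.81 to 4.46.

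Of the 36 genes lost, AtLEA4-1 went from full cover, with fold enrichments of 3.45 and 3.01, to no peak in either val1val2 library. RLP43, a receptor-like protein gene, had a cover of 67.8% and 63.5% (3.16 and 3.19) in wild type and none in val1val2. PRR1, a pinoresinol reductase gene of lignan synthesis, kept a weaker peak: its cover was 68.0% and 68.3% in wild type compared with 18.5% and 19.0% in val1val2, with fold enrichments of 4.22 and 4.27 against 1.59 and 1.58. 5PTASE11, an inositol polyphosphate phosphatase gene, and SKS6, a multicopper-oxidase-like gene, also kept weak peaks, at 14.1% and 13.4% and at 16.8% and 13.4% cover. HSD5, a hydroxysteroid dehydrogenase gene, EXPA5, a cell-wall expansin, the transcription factor gene NAC060, and PRE1, a helix-loop-helix regulator of growth, had no val1val2 peak. Their wild-type cover lay between 39.5% and 87.9%. MAKR1 had none either, and its wild-type cover was 89.3% and 38.3%, so its libraries differed widely.

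Of the 315 genes gained, those with the highest fold enrichments among named genes had no wild-type peak, apart from AIR3. NdhT, a chloroplast NDH complex subunit, had a cover of 83.97% and 84.7% in val1val2 (3.08 and 2.95), and HB34, a zinc-finger homeobox gene, 69.8% and 71.4% (2.84 and 3.01). RD21A, a drought-responsive cysteine protease, had 55.1% and 50.3% (3.15 and 2.52). PRK3, a pollen receptor-like kinase, GRF6, a growth-regulating factor, and hda17, a histone deacetylase gene, had covers from 80.8% to 100% and fold enrichments from 2.50 to 2.77. PMP22, CPK22 and UMAMIT44, which encode a peroxisomal membrane protein, a calcium-dependent kinase and a transporter, had covers from 31.8% to 91.6% and fold enrichments from 2.45 to 2.65. AIR3, a subtilisin-like protease gene, was already peaked in wild type at 15.6% and 13.9% cover, below the 20% limit, with 3.09 and 3.30, and reached 36.3% and 35.0% in val1val2 with 2.69 and 2.48. Its call as gained thus rested on width and not on enrichment.

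Transposon genes and pseudogenes showed both stable and new marks. SADHU1-1 had no wild-type peak and a cover of 76.4% and 79.0% in val1val2, with fold enrichments of 3.20 and 3.50. SADHU4-1, of the same family, went from none to 95.2% and 90.5% (1.95 and 2.15). AT2G11035 and AT4G09775, annotated with reverse transcriptase domains, went from none to between 74.5% and 100%. AT5G26617 and AT1G33710, also reverse-transcriptase-like, were fully covered in all 4 libraries, at 2.62 and 2.94 against 2.33 and 2.27 and at 1.74 and 1.78 against 1.59 and 1.59. The pseudogene AT1G32049, chosen after its values were seen, carried the wild-type domain of highest fold enrichment, with 6.77 and 6.80 in wild type compared with 6.12 and 5.72 in val1val2. The undescribed pseudogenes AT1G34330 and AT1G35570, also chosen after their values were seen, had 3.16 and 3.16 and 2.54 and 2.73 in wild type and higher values in val1val2, 4.22 and 4.06 and 4.11 and 4.16. Of the other two pseudogenes chosen in this way, AT2G13920 had 3.04 and 3.22 in wild type compared with 3.50 and 3.33 in val1val2. AT5G36270, a pseudogene of dehydroascorbate reductase, had 3.07 and 3.39 against 3.39 and 3.24, and its genotypes overlapped.

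Gene families picked by words in the annotated product covered 12 groups. Their counts stand against 12.9% of unmarked genes gained and 4.12% of marked genes lost over all protein-coding genes of the windows, and 8.82% and 7.92% over the genome. F-box genes, which encode substrate adaptors of ubiquitin ligases, had the highest marked share among families of more than 50 genes, with 63 of 107 in the windows marked in wild type and 75 in val1val2, 11 gained and 1 (AT2G04230) lost, and on the arms 305 of 546, 346, 49 and 15. Of 107 receptor-like or protein kinase genes, 34 were marked in wild type and 45 in val1val2, with 14 gained, among them PRK1, PRK3 and the immune kinase RIPK, and 3 lost. On the arms 152 of 834 were marked in wild type and 211 in val1val2, with 67 gained and 17 lost. Disease resistance genes went from 6 to 11 of 21, with 4 gained, including RPP13, a gene for resistance to downy mildew. On the arms these went from 59 to 85 of 173, with 29 gained and 3 lost. RPP13 had a cover of 7.56% in the first wild-type library and none in the second, and 44.0% and 33.4% in val1val2. Defensin-like and cysteine-rich genes went from 15 to 21 of 53, with 7 gained and none lost, and on the arms from 99 to 111 of 262, with 21 gained and 16 lost. Zinc finger genes went from 17 to 25 of 62, with 6 gained and none lost, and on the arms from 116 to 142 of 447, with 28 gained and 5 lost. MADS-box genes went from 10 to 12 of 27, with AGL39 and AGL98 gained, and on the arms from 55 to 62 of 93, with 8 gained and 3 lost. Cytochrome P450 genes stayed at 15 of 20, the highest wild-type share of the 12 groups, with CYP94D1 lost, and on the arms went from 124 to 138 of 228, with 20 gained and 8 lost. The other groups had 9 self-incompatibility genes (4 marked in wild type, 6 in val1val2), 6 homeobox genes (4 and 5), 40 transposase or retrotransposon genes (3 and 6), 37 ribosomal protein genes (3 and 4) and 9 auxin response factor genes, none of which was marked in either genotype.

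The 5 longest wild-type domains each lay over neighbouring annotated genes. The longest covered 9261 bp at chr4:2762970-2772230 over AT4G05470, AT4G05475 and AT4G05490, with fold enrichments of 1.47 and 1.46 in wild type compared with 1.52 and 1.53 in val1val2. The next reached 8012 bp over MEE39, a leucine-rich repeat kinase gene, AT3G46340 and a pair of non-coding genes, AT3G07405 and AT3G07415. One of 7983 bp lay over STK, the ovule identity MADS-box gene SEEDSTICK, and AT4G09965. Others lay over AT5G05645, AT5G38230 and AT5G38240 (7235 bp) and over CHX11, CHX10 and AT3G06945 (7218 bp), the CHX genes being cation/proton exchangers. Fold enrichments of these 5 domains lay between 1.29 and 1.70 in the 4 libraries. The val1val2 peak of most overlap was 5262 and 5393 bp long at MEE39, against 8852 and 8048 bp in wild type. At STK it was 6022 and 6088 bp against 8419 and 7983 bp. At AT5G38240 it was 6948 and 3975 bp against 7244 and 7371 bp. It was 9069 and 9560 bp against 9750 and 9261 bp at AT4G05470, and 7051 and 7052 bp against 7288 and 7218 bp at CHX11. The domains were picked by their wild-type length.

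The peak over SAP, the STERILE APETALA gene of flower development, was the highest in both wild-type libraries, at 230 and 246, and stood at 170 and 174 in val1val2, with fold enrichments of 1.77 and 1.73 against 1.47 and 1.49. AT1G33760, an ERF/AP2 transcription factor gene, came second in wild type at 222 and 235 and had 106 and 116 in val1val2. STK had 214 and 230 in wild type compared with 171 and 167 in val1val2. These 3 genes were higher in wild type in both libraries, but they were picked for their high wild-type pileup, which favours that order. Pileup also depends on depth, which is unknown. Over the 1094 pericentromeric wild-type domains with a peak in all 4 libraries, the median log2 change in pileup to val1val2 was 0.34. The highest in val1val2 was the peak over AT1G44191, a gene of the ECA1 gametogenesis-related family, at 196 and 203, with 204 and 226 in wild type. The peaks over GH3.1, which encodes an auxin-responsive protein related to amido synthases, had 158 and 169 in wild type compared with 181 and 172 in val1val2.

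The pericentromeric peak of highest fold enrichment in val1val2 lay beside ribosomal RNA genes in the chromosome 3 window. This peak, at chr3:14201373-14202270 over part of the non-coding gene AT3G06365 downstream of the rRNA gene AT3G41979, had fold enrichments of 4.07 and 3.95 in wild type compared with 6.86 and 6.66 in val1val2. A peak over AT3G41762, on the other side of the rRNA genes, went from 2.11 and 2.51 to 3.78 and 3.60. Another peak of the locus, over AT3G06355 and, in val1val2, AT3G41979, had like fold enrichments in both genotypes, 2.17 and 2.20 in wild type compared with 2.31 and 2.18 in val1val2. Its implied background was 19.7 and 21.3 in wild type compared with 37.5 and 40.1 in val1val2. The implied background of the strongest peak was 19.9 and 21.5 in wild type compared with 27.7 and 28.6 in val1val2. Of the 31-base words of the peaks over AT3G06365 and AT3G41762, between 11.5% and 22.2% were unique, and of the one over AT3G06355 between 20.2% and 45.4%, so many reads there may have more than 1 possible source; read length is not given in the labels.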

How the data were processed

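Peak lists of 7 samples were used: 2 of H3K27me3 in each genotype, 2 of VAL1-GFP, 1 of VAL2-GFP. Per the submitters' processing notes, the authors used MACS2 and the TAIR10 build; no label or header names the aligner, the control or the MACS2 version and settings. Pileup, as deposited, is a coverage signal. The authors also gave a fold enrichment, the ratio of pileup to local background. The deposited −log10 p and −log10 q columns were read by their order, since their headers were damaged. Each list used comes from 1 sample, inputs have none, and the H3K27me3 lists hold no summits, so their pileup was taken as a value over the whole peak. Depth per sample is unknown.

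Genes and sequence came from the RefSeq annotation of TAIR10.1. Cover was counted per base after merging peaks within a list. A domain was a stretch of 200 bp or more under peaks of both replicates, and absent when no peak of the other genotype overlapped it by 1 bp. A gene was marked at 20% cover, lost or gained when both libraries of 1 genotype and neither of the other marked it. Pericentromere and arms were compared by exact sign-flip permutation over the 4 libraries, genotypes by exact permutation of 2 against 2; shares carry Clopper-Pearson 95% intervals. Word uniqueness used 31 bases. Replicate numbers share no origin in the labels. The steps were tested on simulated lists. Python 3.11.15, numpy 2.4.6, pandas 2.3.3 and scipy 1.17.1 were used.

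The windows, lists and calls were chosen with earlier results of these data known. Named genes were up to 10 each of kept, lost and gained protein-coding genes and 6 transposon genes in the windows, ranked by mean fold enrichment of the strongest overlapping peak with named symbols first, the 5 longest wild-type domains and the peaks of highest pileup.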

Additional observations from a re-analysis of the deposited data

How the results depend on the processing

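Alternatives were −log10 q of at least 2 or 10, equal numbers of peaks (the 8324 strongest of each list), windows shrunk by 1 Mb at each end, each library left out, 50% in place of 20% of a gene or of 1 bp of a domain or peak, and, chosen after seeing the data, a fold enrichment of at least 2. Of 106 values, 1 changed direction and 11 counts moved by over 1.5 times. The causes were not tested, except that shrunk windows hold less sequence. Differences with an unchanged direction still varied in size: in shrunk windows length fell to 9.63 bp and cover, log2 pileup and the log2 genotype difference widened to −12.0 points, −0.36 and 0.64. Cover was −4.17 points at fold 2 and −4.45 at −log10 q of 10, length 235 bp at −log10 q of 2, fold enrichment −0.02 at −log10 q of 10, and peaks over pseudogenes or transposons 5.36 points with 50% overlap. Median fold enrichment reversed to 0.0046 in shrunk windows. Genes gained were 168 at −log10 q of 10 and 145 in shrunk windows, against 315; genes lost were 78 at fold 2, 68 at −log10 q of 10 and 9 in shrunk windows, against 36. New val1val2 domains were 279 at fold 2, 203 at −log10 q of 10, 360 with equal numbers and 312 in shrunk windows, against 567; lost wild-type domains were 113 with equal numbers and 23 in shrunk windows, against 75.

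With 1 library left out, genes gained ranged from 329 to 350, genes lost from 42 to 46, new domains from 590 to 642, lost domains from 78 to 92, the log2 genotype difference from 0.39 to 0.41, and the differences of windows from arms from −7.85 to −7.04 points of cover, −0.10 to −0.08 of fold enrichment, 131 to 164 bp of length, −0.22 to −0.12 of log2 pileup, −16.2 to −12.9 points of peaks over protein-coding genes and 10.3 to 11.5 points over pseudogenes or transposons. Window cover was higher in val1val2 than in wild type, by a larger ratio than on the arms, in all 9 settings that change cover (1.28 to 1.65 in the windows, 0.910 to 1.06 on the arms). Differences within same-numbered libraries (replicate block) gave a log2 difference of 0.40, the same as without it; replicate deviations of same-numbered libraries had a correlation of −0.02 over 7074 domains, so the numbers were not taken as pairs. Depth is unknown, and the genotype test could give no p below 0.333.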
